A study of Mus musculus with 89 samples.

Results

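Notch signalling was followed through 10 genes in single cells of the mouse dentate gyrus: the ligands Dll1, Dll3 and Jag1, the receptors Notch1, Notch2 and Notch3, the DNA-binding factor Rbpj, and the target genes Hes1, Hes5 and Hey1. The genes were chosen by name, with earlier results of these data known, and are 10 of the 24411 genes in the deposited tables. The series compared neural stem cells and their immediate progeny from mice of 2 months (48 cells) and 4.5 months (41 cells). All mice were homozygous for Nestin:CFPnuc, a nuclear cyan fluorescent reporter driven by the Nestin promoter, on a C57BL/6 background, so that the cells sampled were those sorted from this reporter line. Each cell was sorted from dissected dentate gyri and made into its own full-length SMART-Seq v4 library. The authors' groups table assigns every cell to 1 of the classes qNSC (taken as quiescent neural stem cells), aNSC (taken as activated ones) and IPC (taken as intermediate progenitors).

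Notch receptors are activated by ligands on a neighbouring cell, after which the receptor is cut inside the membrane and its intracellular domain joins Rbpj on DNA. The complex switches on Hes and Hey genes, whose products are transcriptional repressors of proneural genes such as Neurog2. In the adult dentate gyrus this pathway is known for keeping radial glia-like stem cells undifferentiated, while Delta ligands are typical of cells leaving the stem cell state.

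The table's colour codes divide the 60 qNSC cells into a green set of 25, a red set of 26 and a blue set of 9. What the colours stand for is not given in the sources used here. The 18 aNSC cells were kept apart by Pdgfra, a receptor that marks oligodendrocyte precursors: 7 had 10 or more reads of it and are called Pdgfra-positive, and 11 are called Pdgfra-negative. In the Pdgfra-positive cells the summed level of 8 precursor markers ran from 7719 to 17300 CPM (counts scaled to 1000000 per cell), against 0 to 212 in the Pdgfra-negative cells, in which Pdgfra, Sox10, Neu4 and Lhfpl3 had no read. There were 11 IPC cells, of which 9 had reads for at least 50% of 6 progenitor markers (Eomes, Neurog2, Neurod1, Igfbpl1, Sox11, Dcx; 10 or more reads each). Of the qNSC cells, 59 of 60 passed the same mark for 6 quiescence markers, and 55 of 60 for 7 astrocyte markers, so the class shares its markers with astrocytes. The quiescence mark was also passed by 11 of 11 Pdgfra-negative aNSC and 4 of 11 IPC cells. For astrocyte markers these groups had 7 of 11 and 1 of 11, and no Pdgfra-positive cell passed either mark.

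Cells held 234607 to 1896072 counts in total, the median being 912391. The median cell had reads of 4 of the 10 genes, and the range was 0 to 7. No label names an animal, so each age was treated as 1 sample. No test was possible, and every SD, given as ±, and every exact 95% interval describes cells or counting error, not animals. Age went together with sex-linked reads across the whole series. Y-linked genes reached 10 reads in 38 of 48 cells at 2 months and in 0 of 41 at 4.5 months. For Xist or Tsix the numbers of cells were 0 and 37. Every split by age below, in any class, is thus also a split by these reads. How the classes were assigned is not given in the sources used here, and they may rest on the same expression values, so class differences are descriptions. In all, 6 cells passed the same 50% mark for oligodendrocyte, endothelial, mural, microglia or mature neuron markers. These are the cells said below to carry other markers, a count that leaves out the precursor and astrocyte lists. They are named beside the main values that rest on them, not beside every value that includes them. Ratios of summed CPM can rest on 1 cell, so where leaving out the cell with the most reads of a gene moves a ratio by over 1.5 times, the ratio without it is given, an alternative chosen after seeing the data.

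The promoters of Hes5 and Dll3 are shown first, because, in mean log2(CPM + 1), Hes5 differed most of the 10 genes with age in qNSC cells and Dll3 had the largest difference upward from Pdgfra-negative aNSC to IPC cells. Both are the 250 bases before the RefSeq start site, 5′ to 3′, on GRCm38.p6. The Hes5 stretch is chr4:154960673-154960922 on the plus strand, and the Dll3 stretch is chr7:28301786-28302035 on the minus strand. The Dll3 stretch lies inside the gene as GENCODE places it (28293553 to 28302238), with a 5′ end upstream of this RefSeq start. Sequence before that 5′ end is not shown. Capitals mark matches to the RBPJ core TGGGAA or the longer RBPJ site GTGGGAA, searched on both strands; every longer match contains a core match.
Hes5: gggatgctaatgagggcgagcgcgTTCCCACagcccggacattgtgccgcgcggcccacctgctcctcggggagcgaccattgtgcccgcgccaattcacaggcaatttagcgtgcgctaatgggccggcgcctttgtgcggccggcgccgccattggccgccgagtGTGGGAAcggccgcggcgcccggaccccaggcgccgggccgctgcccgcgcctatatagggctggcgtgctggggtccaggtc
Dll3: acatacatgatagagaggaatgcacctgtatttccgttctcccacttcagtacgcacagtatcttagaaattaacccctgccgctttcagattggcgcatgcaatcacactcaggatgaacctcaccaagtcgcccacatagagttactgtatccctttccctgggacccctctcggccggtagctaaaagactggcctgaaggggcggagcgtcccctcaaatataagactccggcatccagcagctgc

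The Hes5 stretch holds GTGGGAA in both orientations, at bases 25 to 31 (minus strand) and 168 to 174 (plus strand) of the printed run, the second one 83 bases before the start site. Over the 32851 promoter windows in the RefSeq table (250 bases before to 50 after a start), 6.38% hold GTGGGAA at least once and 0.256% hold it at least 2 times. The shorter TGGGAA occurs in 25.6% of them. Promoters were found for 8 of the 10 genes, not for Hes1 and Hey1. Besides Hes5, Rbpj had the core in both of its promoters. The N box CACNAG, a sequence that Hes factors bind, was in promoters of Notch1, Notch2, Notch3 and Dll1, against 42.5% of all windows, and the E box CACGTG was in none of the 10 promoters found, against 7.15%. A match is a run of letters only, and no binding was measured.

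**Figure D1:**
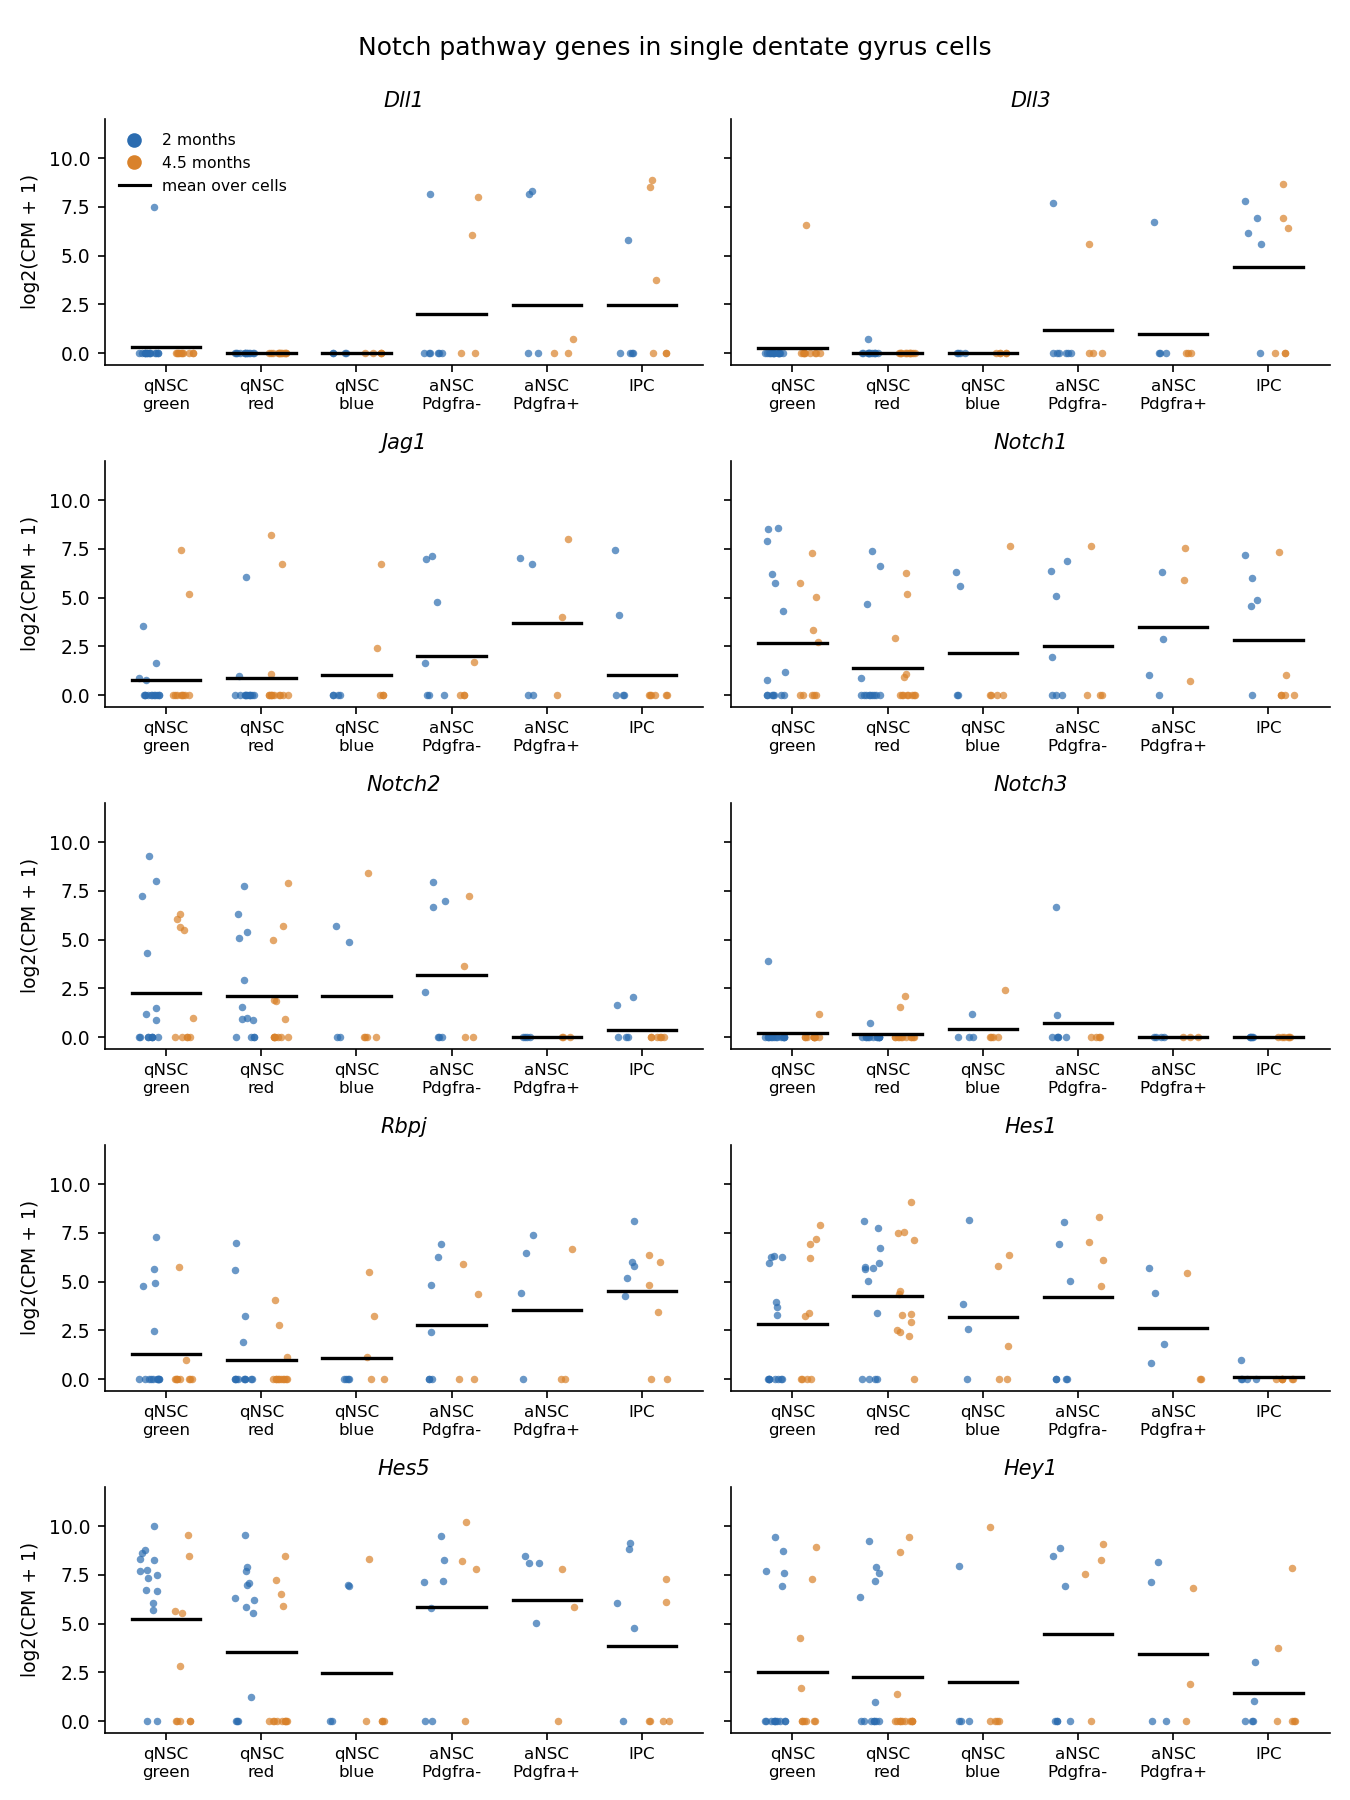
Level of each gene in each cell, as log2(CPM + 1), by qNSC colour, by Pdgfra in aNSC and in IPC; points are cells (blue, 2 months; orange, 4.5 months) and black lines are means over cells. Over all groups, every gene has many cells at 0, and Hes1 sits at or near 0 in all 11 IPC cells.

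Dll1 and Dll3, the Delta ligands, were nearly confined to aNSC and IPC cells in these libraries. Dll1 (chromosome 17, 15367354 to 15376872, minus strand) binds Notch receptors on adjacent cells. It had a read in 1 of 60 qNSC cells, at 171 reads, and in 3 of 11 Pdgfra-negative aNSC, 3 of 7 Pdgfra-positive aNSC and 4 of 11 IPC cells. Of the 707 reads in Pdgfra-positive cells, 284 came from a cell of 2 months that also carried oligodendrocyte markers. In IPC the 4 cells held 12, 17, 350 and 521 reads. Where Dll1 was read it was usually strong: 10 of its 11 cells had 10 or more reads.

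Dll3 (chromosome 7, 28293553 to 28302238, minus strand) is a divergent Delta protein that does not activate Notch in neighbours and is known to act inside the cell that makes it. It had reads in 2 of 60 qNSC cells (116 and 1 reads), 2 of 11 Pdgfra-negative aNSC cells (168 and 51), 1 of 7 Pdgfra-positive cells (103) and 7 of 11 IPC cells. The Pdgfra-positive cell is the one of 2 months with oligodendrocyte markers, and without it that group had no Dll3 read. The 7 IPC cells held 15, 60, 66, 79, 128, 308 and 382 reads. The mean log2(CPM + 1) was 4.41 ± 3.59 in IPC and 0.12 ± 0.85 in qNSC, and the share of IPC cells was 63.6% (30.8 to 89.1) against 3.33% (0.406 to 11.5). Over all measured genes the median of IPC minus qNSC was 0.92. Of the IPC cells 5 had Dll3 and Neurog2, 2 Dll3 alone, 3 Neurog2 alone and 1 neither. None of the 3 qNSC cells with Neurog2 had Dll3. Dll3 was read with Hes6, a Hes family member that opposes Hes1, in all 7 of its IPC cells. Of the other IPC cells 3 had Hes6 and 1 had neither, so Hes6 was usual in IPC with or without Dll3.

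Jag1 (chromosome 2, 137081456 to 137116644, minus strand), a ligand of the Serrate type, was spread differently. It was read in 13 of 60 qNSC cells, but only 6 of these had 10 or more reads, and the highest held 267. Read shares were 5 of 11 in Pdgfra-negative aNSC, 4 of 7 in Pdgfra-positive aNSC and 2 of 11 in IPC. The strongest group was Pdgfra-positive aNSC, at 63.5 CPM of summed counts (57.8 to 69.5), against 12.8 (10.5 to 15.5) in Pdgfra-negative aNSC and 12.2 (11.3 to 13.1) in qNSC. The highest cell held 237 of the 465 reads in the Pdgfra-positive set; the ratio to Pdgfra-negative aNSC, 4.96, was 2.79 without it, and 10.4 without the highest Pdgfra-negative cell.

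Notch1 (chromosome 2, 26457903 to 26516663, minus strand), a main receptor of neural stem cells, was read in every group: 25 of 60 qNSC, 5 of 11 Pdgfra-negative aNSC, 6 of 7 Pdgfra-positive aNSC and 6 of 11 IPC cells. Its means lay close together at 2.05 ± 2.93 in qNSC, 2.54 ± 3.24 and 3.48 ± 3.07 in the aNSC sets and 2.82 ± 3.15 in IPC, differences well inside the spread between cells.

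Notch2 (chromosome 3, 98013527 to 98150361, plus strand), a receptor linked to stem cell quiescence, was not spread evenly. It was read in 30 of 60 qNSC cells, with up to 916 reads, and in 6 of 11 Pdgfra-negative aNSC cells, with up to 105. None of the 7 Pdgfra-positive cells had a read, which allows a share of up to 41.0% (exact interval), and 2 of 11 IPC cells had 1 and 2 reads. The summed level was 42.5 CPM (40.8 to 44.3) in qNSC, 43.9 (39.5 to 48.6) in Pdgfra-negative aNSC and 0.296 (0.0611 to 0.866) in IPC. Without the qNSC cell with 916 reads, the qNSC level was 26.6 CPM.

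Notch3 (chromosome 17, 32120820 to 32166852, minus strand), a receptor typical of vascular mural cells, was rare. It was read in 9 of 89 cells, and in 2 with 10 or more reads. Of the 193 reads in Pdgfra-negative aNSC, 192 came from 1 cell of 2 months that also carried endothelial and mural markers, so the ratio of summed counts to qNSC, 53 (34.6 to 84.8), rests on that cell and was 0.355 without it.

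Rbpj (chromosome 5, 53466152 to 53657362, plus strand), the DNA-binding partner of every Notch receptor, was read more often toward the progenitor end: 17 of 60 qNSC, 6 of 11 Pdgfra-negative aNSC, 4 of 7 Pdgfra-positive aNSC and 9 of 11 IPC cells. The 9 IPC cells held 11 to 378 reads with a median of 37. Mean log2(CPM + 1) was 1.12 ± 2.09, 2.79 ± 2.91, 3.56 ± 3.45 and 4.53 ± 2.54 in the same order. The median number of genes read per cell was 3713.5, 4145, 4999 and 4647 in these groups. Over all measured genes the median of IPC minus qNSC was 0.92, and the part of this in the Rbpj values was not tested.

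The target genes carried the highest levels. Per length, as TPM (length-scaled abundance), the mean over qNSC cells was 178 ± 283 for Hes5, 68.1 ± 140 for Hey1 and 64.0 ± 107 for Hes1. The same scale gave 6.02 ± 15.7 for Notch2, 5.64 ± 13.0 for Notch1, 3.88 ± 13.7 for Jag1, 2.73 ± 7.95 for Rbpj, and 1.28 ± 9.91 and 1.16 ± 8.91 for Dll1 and Dll3. Every SD exceeded its mean, so neighbours in this order do not differ beyond the spread between cells. In IPC cells Hes5 again led at 159 ± 269, followed by Dll3 at 66.3 ± 76.6 and Dll1 at 34.1 ± 70.2, while Hes1 was at 0.104 ± 0.344.

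Hes1 (chromosome 16, 30064384 to 30067796, plus strand), a repressor that holds back differentiation, was read in 40 of 60 qNSC cells, with 594 reads at most and a median of 22 where read. It was read in 7 of 11 Pdgfra-negative and 5 of 7 Pdgfra-positive aNSC cells. In IPC it had 1 read in 1 of 11 cells. Hes5 (chromosome 4, 154960923 to 154962371, plus strand), the target most closely tied to Notch activity in neural stem cells, was read in 35 of 60 qNSC, 8 of 11, 6 of 7 and 6 of 11 cells in the same order. The 6 IPC cells held 25, 69, 76, 145, 178 and 629 reads of Hes5, so that the 2 Hes genes parted in IPC: 5 cells had Hes5 without Hes1, 1 had both, and none had Hes1 alone. In qNSC cells 24 had both, 16 Hes1 alone, 11 Hes5 alone and 9 neither.

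Hey1 (chromosome 3, 8663359 to 8667256, minus strand), a repressor of the same wider family, was read in 20 of 60 qNSC, 6 of 11, 4 of 7 and 4 of 11 cells. Where read in qNSC it was strong, with a median of 226 and a maximum of 629 reads. In IPC 3 of the 4 cells held 8 reads or fewer, and 1 held 254, which was 93.7% of the reads of that group. All 6 Pdgfra-negative aNSC cells with Hey1 also had Hes5. Over all 89 cells, 58 had a receptor and a target gene, 21 a target without a receptor, 5 a receptor without a target and 5 neither.

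Between aNSC and qNSC cells the rule for a difference was a gap of at least 1 in mean log2(CPM + 1), among genes that reached a share of 20% of cells with a read in 1 of the groups. In these data 41.8% of 8878 measured genes were higher in aNSC by that rule and 5.94% lower, with an all-gene median of 0.80. Of the 10 Notch genes 8 were measured; Dll1, Jag1, Rbpj, Hes5 and Hey1 were higher and none lower. Notch1, Notch2 and Hes1 differed by 0.86, -0.25 and 0.08.

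Keeping to Pdgfra-negative aNSC cells, 38.9% of 8033 genes were higher than in qNSC and 7.21% lower, with a median of 0.70. The same 5 of 8 measured Notch genes were higher and none lower. Hey1 had the largest gap, 4.47 ± 4.32 against 2.32 ± 3.65, followed by Dll1 (2.02 ± 3.50 against 0.12 ± 0.97), Hes5 (5.83 ± 3.92 against 4.10 ± 3.74), Rbpj (2.79 ± 2.91 against 1.12 ± 2.09) and Jag1 (2.02 ± 2.88 against 0.86 ± 2.08). The ratio of summed CPM was 18.9 for Dll1 (15.8 to 22.6), whose 171 qNSC reads all came from 1 cell. It was 2.98 for Rbpj (2.55 to 3.47), but 1.70 for Hes5, 1.73 for Hey1 and 1.05 for Jag1 (0.849 to 1.29). Without the aNSC cell with the most reads of the gene, the ratios were 10.9 for Dll1, 1.96 for Rbpj, 1.01 for Hes5, 1.08 for Hey1 and 0.500 for Jag1, and without the highest qNSC cell Jag1 was at 1.72. Each of the 5 gaps was smaller than the larger SD of its groups, and groups overlapped for every gene, since all had cells at 0 on both sides.

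These gaps were not alike when each age was taken alone, an alternative chosen after seeing the data. The difference between ages was not tested and cannot be told apart from one in sex-linked reads. Within 4.5 months the Hes5 gap was 4.12 and the Hey1 gap 4.38 (4 aNSC and 28 qNSC cells), and within 2 months they were -0.14 and 0.74 (7 and 32 cells). Hes1 was read in all 4 Pdgfra-negative aNSC cells of 4.5 months, at 21, 59, 144 and 229 reads, and in 3 of 7 at 2 months, at 15, 66 and 226, the last in the cell with endothelial and mural markers. Jag1 ran the other way, with gaps of 2.50 at 2 months and -0.92 at 4.5 months. Median depth of the Pdgfra-negative cells was 472000 counts at 2 months and 838586 at 4.5 months, and its part in these values was not tested.

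From Pdgfra-negative aNSC to IPC cells the pathway genes differed in both directions. By the rule, 32.8% of 8787 genes were higher in IPC and 27% lower, with a median of 0.20. Of 9 Notch genes measured, Dll3 and Rbpj were higher, and Notch2, Hes1, Hes5 and Hey1 lower. The shares are near the background in the higher direction and above it in the lower one.

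Hes1 differed most, at 0.09 ± 0.29 in IPC against 4.20 ± 3.50, and its summed CPM was 920 times higher in the aNSC cells (counting interval 165 to 36403, from 1 IPC read). Hey1 was at 1.42 ± 2.52 against 4.47 ± 4.32, with 5.77 times the summed CPM in aNSC (5.05 to 6.60). Notch2 was at 0.34 ± 0.76 against 3.16 ± 3.42, 148 times higher in aNSC (50.3 to 722, from 3 IPC reads). Hes5 was at 3.84 ± 3.87 against 5.83 ± 3.92, with 2.02 times the summed CPM in aNSC (1.88 to 2.18). Dll3 was at 4.41 ± 3.59 against 1.20 ± 2.72, 3.91 times higher in IPC (3.38 to 4.55), and Rbpj at 4.53 ± 2.54 against 2.79 ± 2.91, 2.32 times higher (2.00 to 2.69). Of these 6 gaps, that of Hes1 exceeded the larger SD of its groups and the other 5 did not.

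Several of these ratios rest on 1 cell. For Dll3, 168 of the 219 aNSC reads came from 1 cell, and without it the ratio was 15.1. For Rbpj, 1 IPC cell of 2 months held 378 of the 688 IPC reads; the ratio was 1.21 without it and 3.53 without the highest aNSC cell. For Hes5, aNSC over IPC, it was 3.97 without the highest IPC cell and 1.20 without the highest aNSC cell. For Hey1 it was 81.8 without the IPC cell with 254 reads and 3.60 without the highest aNSC cell. For Notch2 it was 403 without the IPC cell with 2 reads, and the Hes1 ratio has no value without its single IPC read.

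The gaps of Hes1 (-2.66 and -6.56), Notch2 (-2.68 and -2.71), Hey1 (-2.66 and -4.29) and Dll3 (4.20 and 2.28) kept their sign within 2 and within 4.5 months. Rbpj did too, at 5.86 in IPC against 2.92 at 2 months. At 4.5 months Rbpj was at 3.43 against 2.56, a gap under the rule. Hes5 did not keep its sign. It was read in 4 of 5 IPC cells of 2 months and 2 of 6 of 4.5 months. Its gap was 0.35 at 2 months and -4.33 at 4.5 months. The ages also differed in sex-linked reads, whose part in this was not tested.

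**Figure D2:**
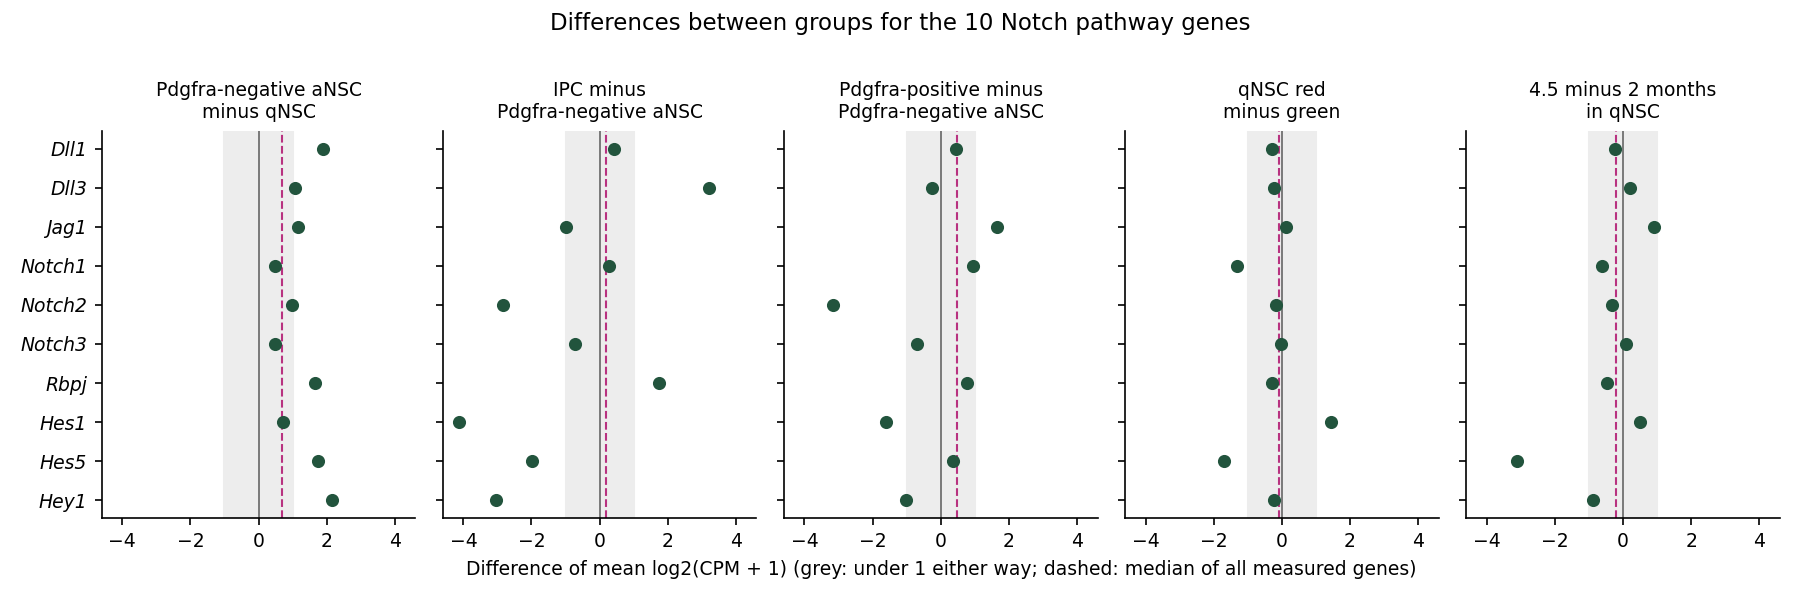
Difference of mean log2(CPM + 1) between groups for the 10 genes, 1 panel for each comparison; grey marks differences under 1 and the dashed line the median of all measured genes. Hes1, Hey1, Notch2 and Hes5 lie left of the grey band in IPC against Pdgfra-negative aNSC, and Hes5 alone lies outside it in qNSC by age.

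Pdgfra-positive aNSC cells differed from Pdgfra-negative ones in another way. By the rule, 37.8% of 9574 genes were higher and 21.5% lower, with a median of 0.47. Of 8 Notch genes measured Jag1 was higher, and Notch2, Hes1 and Hey1 lower. Jag1 was at 3.67 ± 3.64 against 2.02 ± 2.88, and Hes1 at 2.59 ± 2.52 against 4.20 ± 3.50. Notch2 was at 0 in all 7 cells, so its fold can only be bounded. A floor of 3 counts for the whole group gives a bound of 107-fold lower, and the exact interval one of 86.7-fold. Both bounds cover counting error only, not the spread over cells. Hes5 was at 6.19 ± 3.02 and 5.83 ± 3.92, a gap of 0.36 that is small beside the spread between cells and was -0.54 without the cells that carry other markers.

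Of these 4 gaps, 2 did not keep their sign within each age, again an alternative chosen after seeing the data (4 and 7 cells at 2 months, 3 and 4 at 4.5 months). Hes1 and Hey1 were lower in Pdgfra-positive cells at 4.5 months (-4.75 and -3.31) but not at 2 months (0.32 and 0.36). Jag1 gaps were 0.50, which is under the rule, and 3.56, and Notch2 gaps -3.42 and -2.71, at 2 and 4.5 months. Hes5 was higher at 2 months (2.01) and lower at 4.5 months (-2.01). The difference between ages was not tested, and age cannot be separated from sex-linked reads in these cells.

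Within qNSC, Hes1 had the higher mean in the red set and Hes5 in the green set, and both genes were read in most cells of both sets. Red against green, 12.9% of 7613 genes were higher and 15.7% lower, with a median of -0.09. Of 7 Notch genes measured, Hes1 was higher in red, and Notch1 and Hes5 were lower. Hes1 had reads in 21 of 26 red cells (median 25 where read) and 13 of 25 green cells (median 66), at means of 4.26 ± 2.83 and 2.83 ± 3.01. The gap of 1.43 was 0.69 with a pseudocount of 10 and 0.88 within 4.5 months, both under the rule. Hes5 had reads in 14 of 26 red and 18 of 25 green cells, at 3.56 ± 3.63 and 5.25 ± 3.65, and its summed CPM was 2.86 times higher in green (2.71 to 3.02). The exact intervals of the shares overlap for both, at 60.6 to 93.4% and 31.3 to 72.2% for Hes1 and 33.4 to 73.4% and 50.6 to 87.9% for Hes5. The red cell with the most Hes5 reads, 419 of 1763, was of 2 months and carried oligodendrocyte markers. Notch1 had reads in 9 red and 13 green cells, with 4.51 times the summed CPM in green (3.99 to 5.11), and 9.65 times without the red cell that held 172 of the 311 red reads. All 3 gaps kept their sign within each age (Hes1 1.77 and 0.88, Hes5 -1.68 and -1.03, Notch1 -1.37 and -1.16 at 2 and 4.5 months). All 26 red cells and 21 of 25 green cells passed the mark for astrocyte markers, whose summed level had medians of 19917 and 15341 CPM, and the part of this in the Hes gaps was not tested. The 9 blue cells had Hes5 in 3, Hes1 in 6 and Notch2 in 3.

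By the rule, Hes5 was the Notch gene that differed between ages in qNSC cells. At 4.5 against 2 months 6.21% of 7247 genes were higher and 16.7% lower, with a median of -0.22. Age and sex-linked reads cannot be told apart here: 24 of 32 qNSC cells of 2 months and 0 of 28 of 4.5 months passed 10 reads of a Y-linked gene, and 0 and 25 passed 10 reads of Xist or Tsix. Of 7 Notch genes measured none was higher at 4.5 months, and Hes5 alone was lower. At 2 months Hes5 had reads in 25 of 32 cells, from 2 to 1185 with a median of 145 where read, and at 4.5 months in 10 of 28, from 6 to 752 with a median of 70.5. The groups overlapped. The share of cells with a read was 78.1% (60.0 to 90.7) against 35.7% (18.6 to 55.9). Thinned to 442931 counts per cell, the shares were 75.0% and 34.5%. Means were 5.55 ± 3.33 and 2.44 ± 3.53, a gap of -3.11, and leaving out any single cell kept it between -3.37 and -2.96. In summed CPM Hes5 was 2.11 times higher at 2 months (2.00 to 2.22), and 3.29 times without the cell of 4.5 months with 752 reads. On that scale other genes differed more between ages: Rbpj was 4.67 times and Notch1 2.61 times higher at 2 months, and Jag1 19.2 times higher at 4.5 months.

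The Hes5 gap appeared in each colour set. At 2 and 4.5 months in turn, Hes5 was read in 13 of 15 and 5 of 10 green, 10 of 13 and 4 of 13 red, and 2 of 4 and 1 of 5 blue cells. The differences of means were -3.43, -2.78 and -1.81, beside all-gene medians of -0.01, -0.14 and -0.29. IPC cells ran the same way (-3.53, 5 and 6 cells) and Pdgfra-negative aNSC cells the other way (1.15, 7 and 4 cells).

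Hes1 did not share that pattern. In qNSC it was read in 19 of the 32 younger and 21 of the 28 older cells, at 3.26 ± 3.02 and 3.77 ± 2.95. By colour its gaps, 4.5 minus 2 months, were 1.10 in green, which is past the rule, 0.21 in red and -0.88 in blue. In red cells of 4.5 months 12 of 13 had Hes1, but with a median of only 12.5 reads, against 41 in the 9 of 13 red cells of 2 months. Hey1 was read in 12 of 32 and 8 of 28 cells, and its gap of -0.89 became -1.48 without the 6 cells that carry other markers, because 2 of these, a red cell with endothelial and a green cell with oligodendrocyte markers, held 577 and 153 reads. Jag1 was read in 6 of 32 and 7 of 28 cells, in 1 and 5 of them with 10 or more reads, at 1.37 CPM (0.995 to 1.85) and 26.4 CPM (24.3 to 28.5). Its ratio, 4.5 over 2 months, was 58.1 without the highest cell of 2 months and 11.5 without that of 4.5 months. Rbpj had similar shares, 9 of 32 and 8 of 28, but fewer reads per cell at 4.5 months, at medians of 36 and 4 where read. Its ratio was 2.98 without the highest cell of 2 months and 9.06 without that of 4.5 months, and the Notch1 ratio 4.45 without the highest cell of 4.5 months. Notch1 and Notch2 gaps were -0.61 and -0.33.

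**Figure D3:**
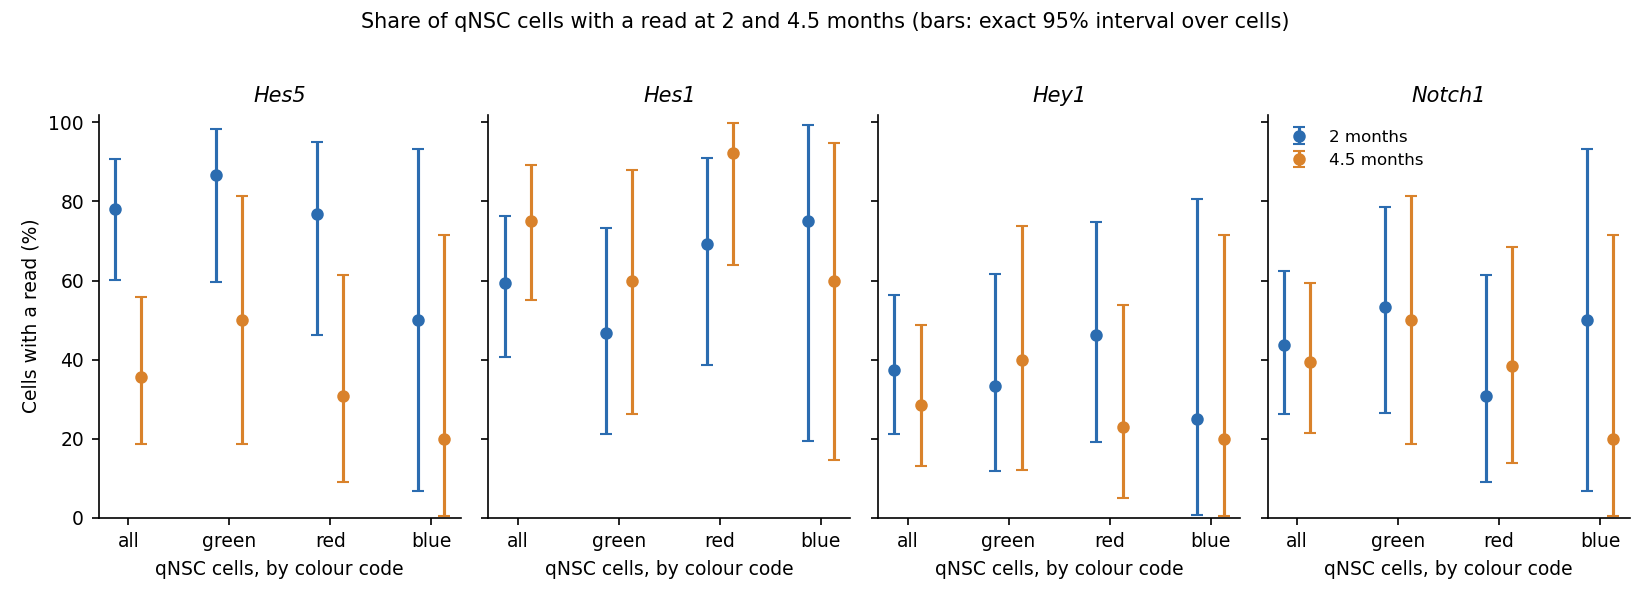
Share of qNSC cells with a read (per cent) of Hes5, Hes1, Hey1 and Notch1, over all qNSC cells and by colour code, at 2 months (blue) and 4.5 months (orange); bars are exact 95% intervals over cells. Only for Hes5 over all qNSC cells do the intervals, 60.0 to 90.7 and 18.6 to 55.9, stay apart.

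The wider pathway was read through 61 other genes grouped by role. Between Pdgfra-negative aNSC and qNSC 39 were measured, 16 higher and none lower, with a median of 0.52 beside 0.70 over all genes, of which 38.9% were higher and 7.21% lower. The largest were Hdac1, a corepressor deacetylase (6.93 against 3.73), Poglut1, which adds glucose to Notch (5.49 against 2.64), Itch, a ubiquitin ligase that turns Notch over (4.56 against 1.71), and Hes6 (6.16 against 3.32). Between all aNSC and qNSC 12 of 37 were higher, against 41.8% of all genes, and none lower, led by Hdac2, Cntn1, Itch and Ctbp1.

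From Pdgfra-negative aNSC to IPC 12 of 37 were higher and 9 lower, with a median of 0.03, shares near those of all genes (32.8% and 27%). The proneural gene Neurog2 was higher: it was read in 8 of 11 IPC cells against 3 of 11 (5.80 ± 4.06 against 1.35 ± 2.44). Hes6 was at 8.96 ± 3.01 against 6.16 ± 3.11 and was read in 10 of 11 cells of each group. Of the fringe enzymes, which add a sugar to Notch and alter its ligand preference, Lfng was lower and Mfng higher, and Rfng differed by 0.48. Lfng was read in 10 of 11 aNSC and 1 of 11 IPC cells, and Mfng in 1 of 11 and 6 of 11. Lfng was also usual in qNSC (46 of 60 cells), where Mfng was read in 3. Other lower genes were Tle4, a corepressor partner of Hes proteins (1.34 ± 2.13 against 4.05 ± 4.51), Itch and the Notch target Heyl, which had no read in IPC. By role, among groups with at least 5 measured genes, ligand endocytosis and receptor turnover had 4 of 5 lower (Itch, Numb, Dtx3, Dtx1) and none higher. Glycosylation and folding had 2 of 5 higher and 1 lower, cleavage 2 of 8 higher and 1 lower, the nuclear complex 4 of 11 higher and none lower, and other targets and Hes family genes 2 of 6 higher and 3 lower.

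In Pdgfra-positive against Pdgfra-negative aNSC 10 of 41 were higher and 10 lower, against 37.8% and 21.5% of all genes. Cntn1 and Dner, atypical membrane ligands of Notch, led: Cntn1 was read in all 7 Pdgfra-positive cells at 10.34 ± 0.87 and in 2 of 11 Pdgfra-negative cells at 1.35 ± 3.0, and Dner in 6 of 7 against 2 of 11. Hes6 (1.22 ± 2.50 against 6.16 ± 3.11), Hdac1, Lfng and Poglut1 were the largest in the lower direction.

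Within qNSC the wider list showed little. By age 2 of 35 were higher (Psenen and Poglut1) and 4 lower, among them Ctbp1, Psen2 and Hdac1, shares close to the background. Psenen, a subunit of the enzyme that cuts Notch, was at 5.80 ± 2.62 and 6.89 ± 1.70 at 2 and 4.5 months. By colour 2 of 35 were higher in red (Cntn1 and Ncstn) and 5 lower, against 12.9% and 15.7% of all genes, led by Dtx4, Hes6, Nrarp and Psen2.

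**Figure D4:**
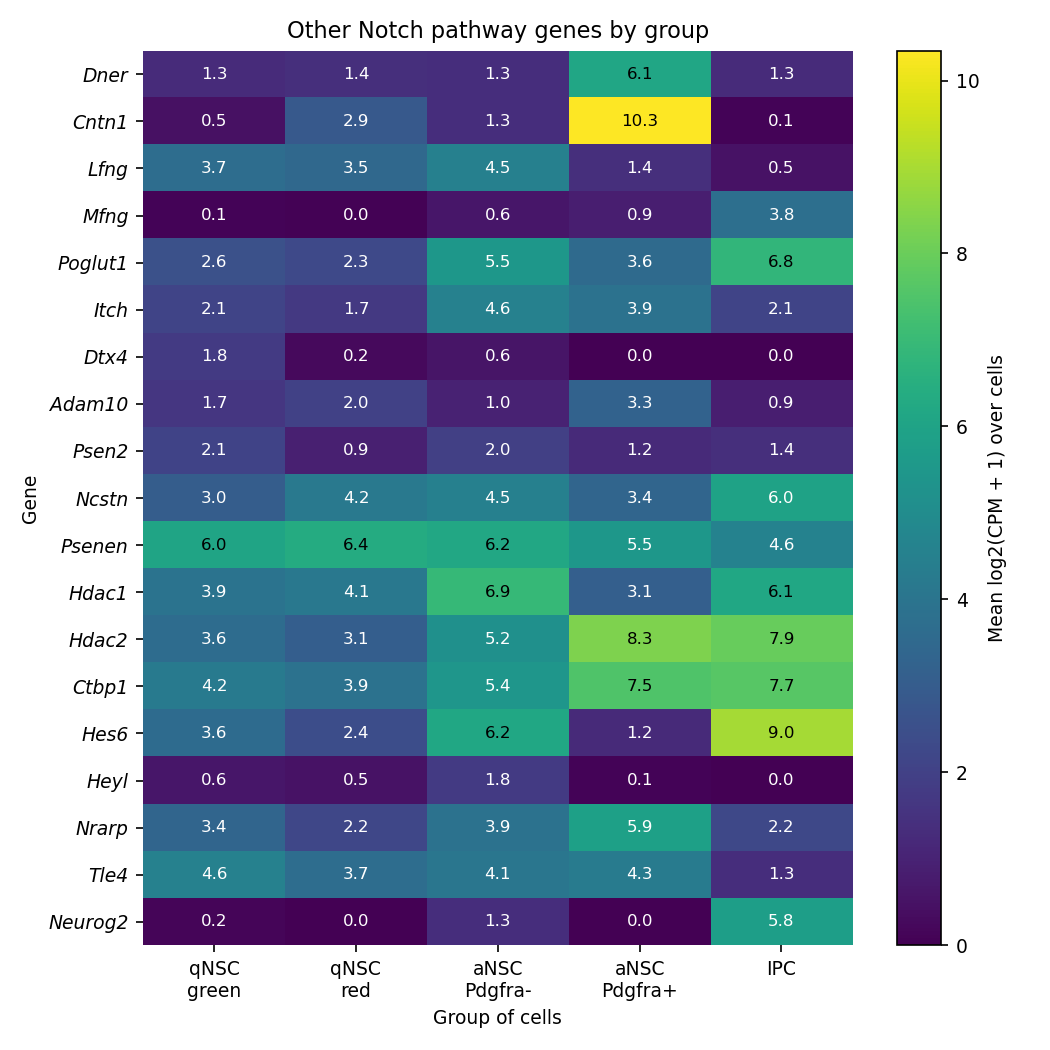
Mean log2(CPM + 1) over cells, printed in each field, for wider pathway genes with the largest differences in a comparison, in qNSC green and red, Pdgfra-negative and Pdgfra-positive aNSC and IPC cells. Lfng and Tle4 are low in IPC while Mfng, Hes6 and Neurog2 are high, and Cntn1 at 10.3 stands out in Pdgfra-positive aNSC.

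Likeness between genes over cells was weak. Among 6915 genes read in at least 20% of the 89 cells, the closest to Hes5 by Spearman correlation was Lpar1, a lysophosphatidic acid receptor (0.44 over 89 cells, 0.38 over 60 qNSC cells). The closest to Notch2 was Renbp (0.51), to Rbpj Slc35a1 (0.47), to Hes1 Nr3c2, the mineralocorticoid receptor (0.44), to Hey1 Cpsf7 (0.44), to Notch1 Iws1 (0.42) and to Jag1 Kctd4 (0.38). Hes1 and Hes5 had 0.07 with each other. The cells share depth and class, and coefficients of this size in sparse counts are given as a description only.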

How the data were processed

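The 2 value tables that the authors deposited hold estimated counts and TPM, for each gene in each cell; per the submitters' processing notes the tools were STAR, RSEM and mm10; parameters and annotation are not given in the sources used here. Nonzero counts that were not whole (4.44%, tolerance 1e-06) were rounded for intervals and detection. Counts were scaled to CPM per cell, then put on the scale log2(CPM + 1). Groups were described by mean and SD, by the share of their cells that had a read (Clopper-Pearson 95% interval) and the CPM of summed counts (exact Poisson and conditional 95% intervals); since no molecular identifiers were used, reads are not independent molecules and these intervals cover counting error only. Where a group had no read, a floor of 3 counts over the group bounded the fold. Of the wider pathway list, up to 4 genes per comparison and direction with the largest difference past the rule were named, and 3 genes most alike per gene were computed; 1 gene of that list is included in its counts and medians but is not reported here. The 10 genes and all lists were chosen with earlier results of these data known. Gene positions are from GENCODE M21 (mm10). The kit does not record strand, and exons of Notch1, Notch3, Dll1 and Hes5 overlap antisense transcripts, and those of Notch2 a transcript on the same strand, so reads there could be shared. Alternatives are listed in the closing section. Python 3.11.15, numpy 2.4.6, scipy 1.17.1 and pandas 2.3.3 were used. The difference rule was run on simulated counts for the age comparison in qNSC only, not for the smaller groups.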

Additional observations from a re-analysis of the deposited data

Results flagged for a closer look

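In 47 sets of 4 to 10 cells (a class or qNSC colour at 1 age, for a gene with any spread), the gap of the highest or lowest cell to its nearest neighbour, over the whole range, was set against Dixon's 95% critical value. It was exceeded in 15 sets. Chance alone gives about 1 in 20 in groups without a floor at 0; here 12 of the 15 are sets in which only 1 cell had a read. Values are log2(CPM + 1).

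The single cells with reads were Dll3 in aNSC at 4.5 months (5.57, 51 reads), Dll1 in IPC at 2 months (5.79, 17 reads), Hes1 in IPC at 2 months (0.97, 1 read), Notch3 in green qNSC at 4.5 months (1.16, 1 read) and Dll3 in green qNSC at 4.5 months (6.55, 116 reads). In blue qNSC at 2 months they were Notch3 (1.17, 1 read) and Hey1 (7.95, 349 reads), and at 4.5 months Notch1 (7.65, 67 reads), Notch2 (8.41, 288 reads), Notch3 (2.40, 1 read), Hes5 (8.33, 75 reads) and Hey1 (9.94, 230 reads). In the other 3 sets, Dll3 in IPC at 2 months had 1 cell at 0 with the next at 5.61, Notch1 in IPC at 4.5 months had 1 cell at 7.31 (175 reads) with the next at 1.04, and Rbpj in green qNSC at 4.5 months had 1 cell at 5.76 (38 reads) with the next at 1.00.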

How the results depend on the processing

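The alternatives were a pseudocount of 10, deposited TPM, thinning to 442931 counts (81 cells reach it; levels from 1 random draw), a 50% or no filter, leaving out the 6 cells with other markers, summed counts, leaving out each cell in turn and, chosen after seeing the data, each age alone, the same set for Pdgfra-positive against Pdgfra-negative aNSC, and ratios without the highest cell. Of 520 differences, 507 moved by less than 1 SD over cells and 8 moved by more. Among the 507, 47 changed sign in a difference that was under the rule. Many gaps were smaller than that SD, so a gap could disappear and still be among the 507, and this count does not measure stability. Of 24 differences past the rule, 19 kept their sign under every alternative run. The 5 that turned, each in a comparison with Pdgfra-negative aNSC and within 1 age, were Jag1 to qNSC at 4.5 months (-0.92), Hes5 to qNSC at 2 months (-0.14) Hes5 in IPC at 2 months (0.35), and Hes1 (0.32) and Hey1 (0.36) in Pdgfra-positive aNSC at 2 months; the cause was not tested. Of 104 counts of genes past the rule 25 moved. For aNSC against qNSC the 5 higher genes became 3 with pseudocount 10 (Dll1, Hes5, Hey1), 3 with summed counts and 3 at 2 months. Of all measured genes 16.8%, 30.6% and 44.7% were higher under these alternatives, against 41.8% in the main run. For Pdgfra-negative aNSC against qNSC the 5 higher Notch genes became 3 with pseudocount 10, 3 with the 50% filter, 3 at 2 months and 2 with summed counts. The shares of all genes were 15.8%, 49.7%, 40.6% and 25.3% in the same order. For IPC against Pdgfra-negative aNSC the 2 higher became 1, Dll3, with pseudocount 10 and at 4.5 months. For age in qNSC, the count of higher genes became 1, Jag1, without the marked cells and with summed counts, and the 1 lower gene became 2 and 3 (Hes5 in both). Of all genes 5.97% and 10.8% were higher there, and 19.9% and 15.6% lower. For red against green the 1 higher gene became 0 with pseudocount 10, 2 with summed counts and 0 at 4.5 months, and the 2 lower became 1, Hes5, with pseudocount 10 and with TPM. In the same order 3.60%, 10.6% and 18.1% of all genes were higher, and 4.36% and 14.1% lower. For Pdgfra-positive against Pdgfra-negative aNSC the 1 higher gene became 0 with pseudocount 10, 2 thinned, without the marked cells, with summed counts and at 4.5 months, and 3 at 2 months (Dll1, Rbpj, Hes5), and the 3 lower became 6 at 4.5 months. Of all genes 21.2%, 38.5%, 36.7%, 30.7%, 35.1% and 42.3% were higher in that order, and 34.6% lower at 4.5 months. Where a share rested on single reads, asking for 10 reads lowered it, as for Hes1 in qNSC (46.7%) and Notch2 in IPC (0). No paired analysis was possible because the replicate numbers only name cells and no result comes from a test.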
